A study of Mus musculus with 1 sample.

Results

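The potassium channel genes of the mouse are named with the prefix *Kcn*. Members were all features whose symbol starts with *Kcn* and that had at least 1 unique molecular identifier (UMI, a count of 1 captured RNA molecule) in 3 or more cell barcodes. This rule took 79 of the 99 *Kcn* features, among 18713 features of the library that reached the same minimum. Of the 20 *Kcn* features below it, 11 had 0 UMIs (*Kcna10*, *Kcnj1*, *Kcnj16*, *Kcnk4*, *Kcnk15*, *Kcnk16*, *Kcnk18*, *Kcnmb1*, *Kcnmb4os1*, *Kcns1* and *Kcnv2*). The other 9 had 1 or 2 UMIs (*Kcna3*, *Kcna7*, *Kcne2*, *Kcnf1*, *Kcng1*, *Kcnh5*, *Kcnj5*, *Kcnk10* and *Kcnmb3*). The members had 62173 UMIs in all.

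The data were 1 droplet library (Chromium Single Cell 3′) prepared from the adrenal medullae of untreated wild-type mice, 15 days after birth. Medullae of 10 adrenals from 5 mice of mixed sex were pooled after the fat and most of the cortex had been trimmed away by hand. Of their cells, 10000 viable ones were used per the study's methods. Per the study's methods, its mice were of mixed background with repeated crosses to CD1. With 1 pooled library and no replicate library, no test across samples was run and no p-value is given. All intervals are 95% and cover counting error only.

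The library held 11214 barcodes with 500 to 33809 UMIs (median 3250) and 51421499 UMIs in all. Of the barcodes 10139 (90.4%) passed the filters and are called cells. Both numbers are above the 10000 viable cells stated to have been used. Clustering without the *Kcn* genes gave 13 named classes with 9113 cells. The remaining 1026 cells were left unnamed, and 50.4% of these were called doublets against 1.67% of the named cells. Adrenaline (1660 cells), noradrenaline (390) and cycling (139) chromaffin-like cells had 7 of 7 chromaffin markers in at least 50% of cells. Transitioning adrenaline-like (94) and transitioning noradrenaline-like (324) cells had chromaffin together with sustentacular markers, the latter summing to 11.9% and 17.8% of their level in sustentacular-like cells. The first were led by *Agrp*, *Ly6h* and *Prph*, and the second by *Apod*, *Timp3* and *Fabp7*. The name of the first thus rests on the marker rule and not on its leading genes. The 179 sustentacular-like cells had all 6 sustentacular markers in at least 25% of cells. Their median of 1149 UMIs was 0.354 of that of all barcodes. *Lgi4* was the seventh of their genes by fold, and *Kcna1* and *Kcna2*, which had no part in the clustering, were the first and the fifth. The cortex, which the dissection was meant to remove, was left as outer (125), fasciculata (1170), inner (1786) and cycling (351) cortex-like cells. Endothelial (2151), immune (656) and fibroblast-like (88) cells made up the rest. Of the fibroblast-like cells 25 had 3 or more mural markers, and the other 63 had 451 CPM of *Pnmt*. Endothelial markers were also found in this class. A fasciculata-like cluster was led by *Atf3*, *Fos* and *Btg2* and an adrenaline cluster by *Atf3*, *Egr3* and *Dnajb1*, which are stress or immediate early genes.

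Potassium channels let K+ leave the cell, which draws the membrane towards rest and ends action potentials. Chromaffin cells fire action potentials that open calcium channels and release catecholamines, so their potassium channels set how readily they secrete. In the outer cortex, the zona glomerulosa, background K+ currents hold the very negative potential from which aldosterone release is controlled. Glia, to which sustentacular cells are related, use other potassium channels to take up K+ and to stay near the K+ equilibrium potential. Levels are given as UMIs of a gene per 1000000 UMIs of a class (counts per 1000000, CPM). The assay counts 1 end of each RNA, so CPM is a count of molecules and was not divided by gene length.

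Families were set by gene symbol. The members comprised 20 voltage-gated pore subunits (Kv1 to Kv4, Kv6, Kv8 and Kv9), 5 Kv7 genes and 7 of the ether-a-go-go group. There were 8 members of the calcium- or sodium-activated group, which by symbol includes *Kcnu1*, 12 inward rectifiers and 9 tandem-pore-domain leak channels. The rest were 13 auxiliary subunits and 5 other genes, which include the non-coding *Kcnq1ot1*. The 9 leak channel genes held 34299 of the 62173 member UMIs. In all, 46 members reached 10 CPM in at least 1 class, as did 12534 of all 18713 features. At 100 CPM it was 11 members, for which no share of all features was counted. For 13 of the 79 members the highest class and the next had intervals that did not overlap, against 15.2% of all 18713 features. Among those at 10 CPM or more in a class it was 12 of 46 members, against 21.3% of 12534 features. The 13 were highest in outer cortex-like (5 members), sustentacular-like (4), noradrenaline chromaffin-like (2), adrenaline chromaffin-like (1) and inner cortex-like cells (1). Of all 18713 features, 1.20%, 1.70%, 0.454%, 0.171% and 2.58% were highest and apart in these classes, in the same order.

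**Figure D1:**
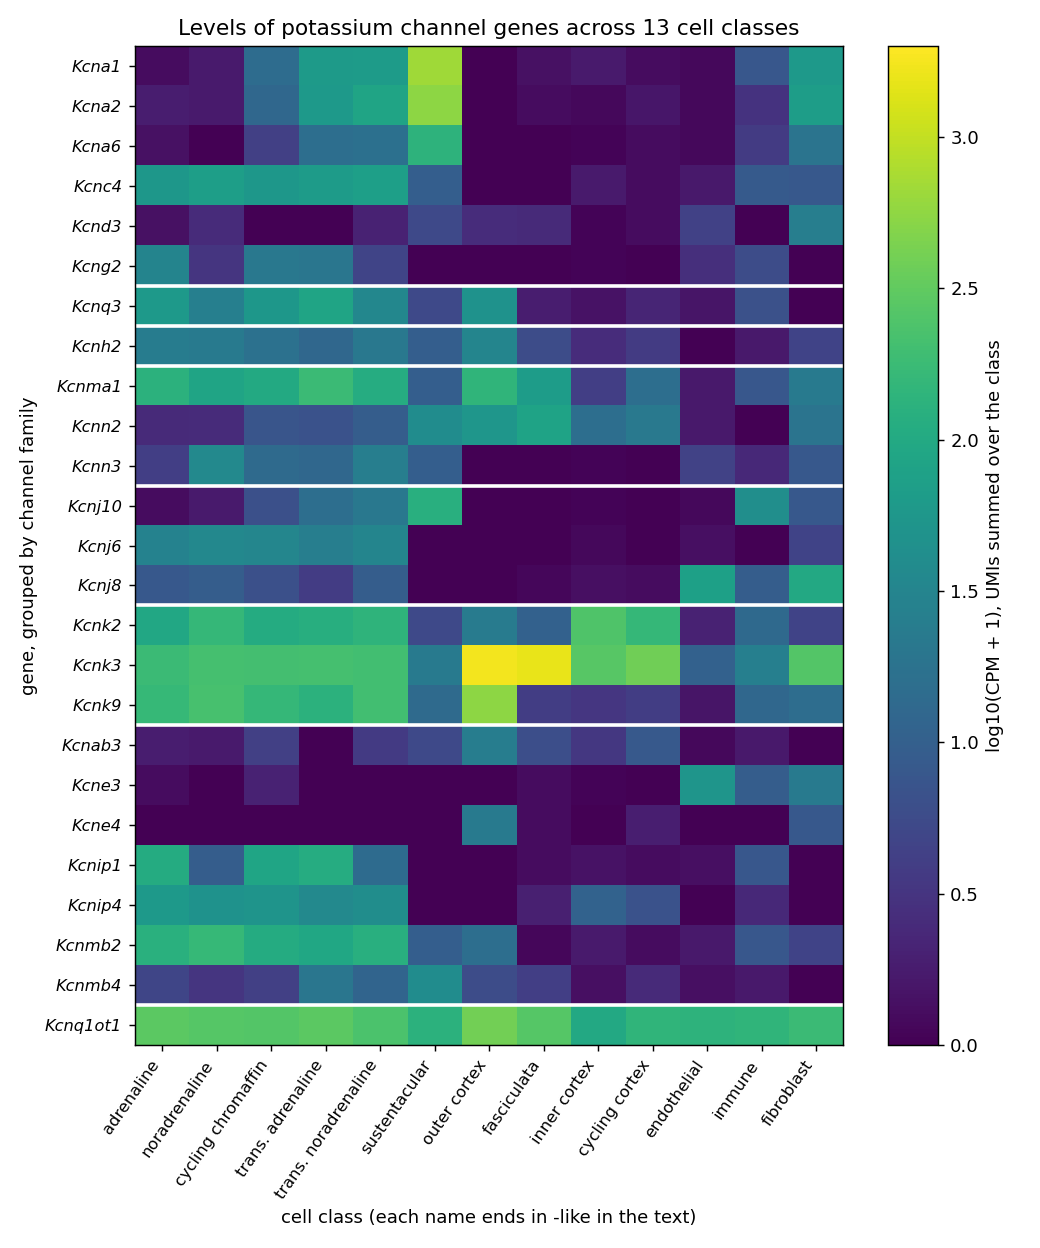
Heat map of 25 of the members that reached 20 CPM in a class, with at least 10 UMIs over the classes. Rows are genes grouped by family (white lines), columns the 13 classes, and colour is log10(CPM + 1). *Kcnk3* stands out in outer cortex and fasciculata, *Kcna1* and *Kcna2* in sustentacular cells, and *Kcnip1* in the adrenaline but not the noradrenaline column.

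The summed level of all members but *Kcnq1ot1* was highest in outer cortex-like cells (2766 CPM, interval 2637 to 2900), where leak channels made up 85.3% of it. Fasciculata-like cells followed with 1742 CPM (1712 to 1773), 89.4% of it from leak channels. Sustentacular-like cells had 1731 CPM (1565 to 1909), which overlaps fasciculata-like cells, yet 79.0% came from voltage-gated pore subunits. The chromaffin and transitioning classes lay between 1257 and 1505 CPM and drew on more families. In adrenaline cells leak channels gave 35.2%, auxiliary subunits 25.2% and voltage-gated pore subunits 14.7%. Endothelial-like and immune-like cells had the lowest sums, 249 and 245 CPM.

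**Figure D2:**
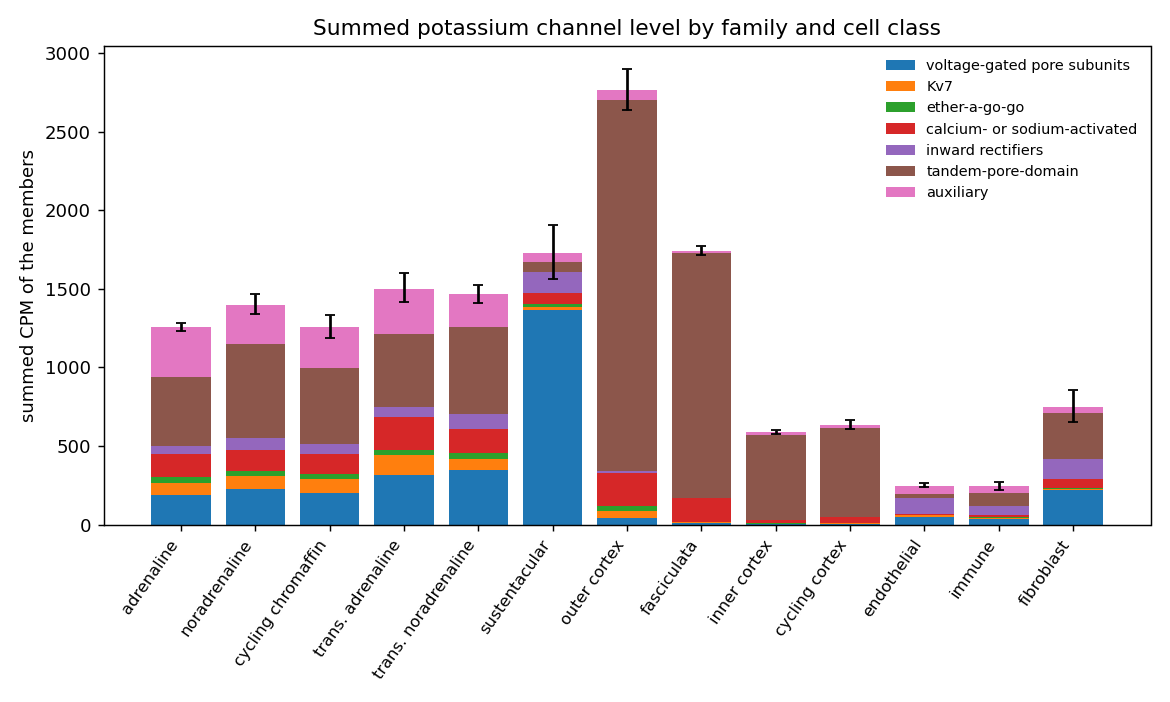
Stacked bars of the summed CPM of the members of 7 families in each class, with *Kcnq1ot1* and the other genes left out. Error bars are 95% Poisson intervals of the sum over all members but *Kcnq1ot1*. Leak channels make up 85.3% of the outer cortex and 89.4% of the fasciculata bar, and voltage-gated subunits 79.0% of the sustentacular bar.

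A member was called different between classes where its CPM plus 10 differed by 2-fold or more, among genes with at least 10 UMIs over both classes, and the same rule over all genes gave the background. Against cortex-like cells, chromaffin-like cells had 58 of the 79 members with enough UMIs. Of these 16 were higher, against 10% of all 15056 genes tested, and 3 were lower (*Kcnk3*, *Kcnk5*, *Kcnn2*), against 7.82%. The median log2 difference was 0.43 over these members and 0.04 over all genes. Outer cortex-like against the other cortex-like cells had 31 members tested, of which 11 were higher (background 4.91%) and 1 was lower (4.09%). Sustentacular-like against chromaffin-like cells had 51 tested, of which 8 were higher (9.3%) and 17 lower (11.4%). Transitioning-like against noradrenaline chromaffin-like cells had 41 tested, with 5 higher (3.17%) and 0 lower (0.0253%). Adrenaline against noradrenaline chromaffin-like cells had 42 tested, with 2 higher (1.68%) and 2 lower (2.26%). Members with few UMIs reach the minimum only through the class in which they are high, so these counts describe the members with enough UMIs and not all 79.

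Among the leak channels, *Kcnk3* encodes TASK1, an acid-sensitive background channel of the adrenal. It was the most abundant member, with 1769.6 CPM in outer cortex-like (interval 1667 to 1877), 1533 in fasciculata-like (1505 to 1561), 274 in inner cortex-like and 386 in cycling cortex-like cells. All chromaffin and transitioning classes lay between 176 and 214 CPM. Fibroblast-like cells had 261 CPM, with 427 CPM (310 to 574) in the 25 cells with 3 or more mural markers and 164 CPM (110 to 235) in the other 63. These 73 UMIs came from 21 of the 88 fibroblast-like cells, and 7.95% of the cells had 2 or more. The mean over these cells of each cell's CPM was 154. The part of cortex RNA in the fibroblast-like value was not tested. Sustentacular-like, immune-like and endothelial-like cells were lowest with 21.6, 25.8 and 9.62 CPM. Inner cortex-like cells were thus 5.59-fold below fasciculata-like cells (5.37 to 5.82), a ratio of inner to fasciculata of 0.179 that was 0.119 with a stricter cell filter (1000 or more genes, up to 10% mitochondrial UMIs). Their 3 clusters had 186, 316 and 456 CPM. The outer class was 2.45-fold above all other cortex-like cells (2.30 to 2.61). Within the fasciculata-like class the cluster led by *Cyp11b1* had 1344 CPM and the one led by *Atf3* 1797 (1750 to 1845), which overlaps the outer cortex-like level. Of the cells, 99.2% in the outer class and 98.5% in fasciculata had a *Kcnk3* UMI, against 1.999% of endothelial-like cells (median depths 4055, 5347 and 2007 UMIs). With cells thinned to 1000 UMIs these shares were 84.8% of 125, 75.2% of 1168 and 0.856% of 1869 cells that could be thinned.

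*Kcnk9* encodes TASK3, the closest relative of TASK1. In the cortex it was nearly restricted to the outer class, with 549 CPM there (492 to 611) against 2.99 in fasciculata-like, 2.31 in inner cortex-like and 3.01 in cycling cortex-like cells. The outer class was 207-fold above the other cortex-like cells (156 to 279), and 105-fold with the stricter filter and 125-fold with each cell named from its own markers. A *Kcnk9* UMI was found in 91 of 125 outer cortex-like cells, each of which also had a *Kcnk3* UMI, and in 19 of 1170 fasciculata-like cells. Chromaffin-like cells expressed it too, between 157 CPM in cycling and 216 CPM in noradrenaline cells. The chromaffin marker genes in the outer class summed to 0.341% of their level in adrenaline cells, and to 0.444% in the inner class. The part of chromaffin RNA in the cortex-like *Kcnk9* values was not tested. By the calling rule *Kcnk9* was also higher in chromaffin-like than in all cortex-like cells (167 against 18.0 CPM, 9.30-fold, 8.33 to 10.4).

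*Kcnk2* encodes TREK1, a leak channel opened by stretch and lipids. Its order in the cortex was another, with 247 CPM in inner cortex-like (238 to 257), 156 in cycling, 22.5 in outer and 9.53 CPM in fasciculata-like cells. The inner class was 26.0-fold above fasciculata (20.5 to 33.4). All 3 inner clusters had 208 to 266 CPM, and the fasciculata clusters had 14.2 and 2.94 CPM. In the inner class 1043 of 1786 cells had a *Kcnk2* UMI, 836 a *Kcnk3* UMI and 481 both, and the share with *Kcnk2* was 57.5% among cells with *Kcnk3* and 59.2% among those without. Chromaffin-like cells held *Kcnk2* as well, at 94.5 CPM in adrenaline and 158 CPM in noradrenaline cells. Adrenaline cells thus held *Kcnk2*, *Kcnk3* and *Kcnk9* between 94.5 and 176 CPM, and noradrenaline cells between 158 and 216 CPM. Naming each cell from its own markers lowered the ratio of inner to fasciculata-like cells to 5.71, and clustering at a resolution of 0.2 raised it to 93.2.

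*Kcnk5* encodes TASK2, an alkaline-activated leak channel. It reached 19.1 CPM in inner cortex-like, 16.6 in cycling cortex-like, 12.9 in outer and 6.80 CPM in fasciculata-like cells. Chromaffin-like cells had 0.731 CPM, 19.8-fold below the cortex-like cells (9.50 to 49.6). *Kcnk13*, a halothane-inhibited channel known from microglia, was highest in immune-like cells (16.7 CPM) and also present in transitioning noradrenaline-like cells (11.7 CPM). *Kcnk6* had 16.0 CPM in immune-like and 8.40 CPM in endothelial-like cells. *Kcnk1*, *Kcnk7* and *Kcnk12* stayed at or under 6.44 CPM in every class.

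**Figure D3:**
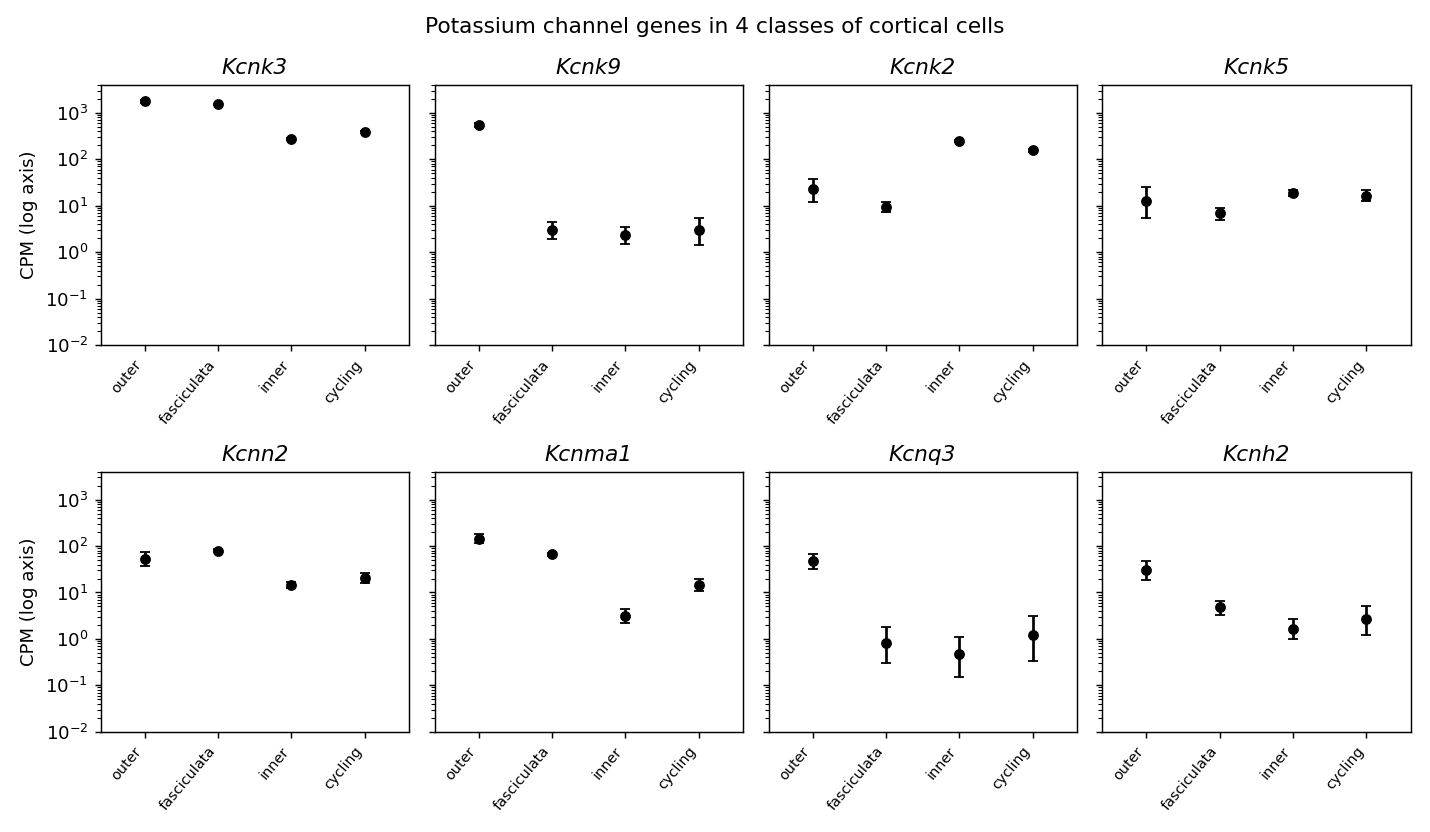
CPM (log axis) of 8 members in the 4 cortex-like classes, with 95% Poisson intervals. *Kcnk9*, *Kcnq3* and *Kcnh2* are highest in the outer class, *Kcnk2* in the inner class, and *Kcnk3*, *Kcnn2* and *Kcnma1* are lowest in the inner class.

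Other members were higher in the outer cortex-like class than in the other cortex-like cells. *Kcnq3*, a Kv7 subunit of the M-current that opens near rest, had 46.7 CPM there against 0.698 in the other cortex-like cells (66.9-fold, 34.7 to 134). *Kcnh2*, the ERG channel that repolarises the heart, had 30.6 against 2.88 CPM (10.6-fold, 5.99 to 18.0). *Kcne4*, an auxiliary subunit that inhibits Kv channels, had 20.9 against 0.233 CPM (90.0-fold, 30.1 to 322, with 57.1 under the stricter filter and 54.4 with cells named from their own markers). *Kcng3*, an electrically silent Kv subunit that works only with a partner, had 11 UMIs in the outer class and 1 in the other cortex-like cells, a ratio of 381 (55.3 to 16387). *Kcnd2* (17.7 against 1.81 CPM), *Kcnab3* (24.2 against 4.09) and *Kcnmb2* (14.5 against 0.465) were also called higher. *Kcnk2* was the 1 member called lower. Over all classes, *Kcnq3* was highest in transitioning adrenaline-like and *Kcnmb2* in noradrenaline chromaffin-like cells. Of 24 members tested, the inner class was below fasciculata in 4 (16.7%), against 2.92% of all genes. It was above fasciculata in 1 (4.17%), against 2.25%. The 4 were *Kcnma1* (3.14 against 66.1 CPM, 21.1-fold lower, 14.9 to 30.8), *Kcnk3*, *Kcnn2* (14.5 against 79.9 CPM, 5.51-fold, 4.61 to 6.61) and *Kcnq1ot1* (96.2 against 268 CPM, 2.79-fold, 2.59 to 3.01), and the 1 was *Kcnk2*. This comparison was added after the data had been seen.

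Voltage-gated pore subunits open on depolarisation and end the action potential. Those with the highest levels in the library were 3 Kv1 genes in sustentacular-like cells. *Kcna1* had 671 CPM there (569 to 785), 62.4 and 63.8 CPM in transitioning adrenaline-like and transitioning noradrenaline-like cells, 13.8 CPM in cycling chromaffin-like cells, and 0.273 and 0.757 CPM in adrenaline and noradrenaline cells. *Kcna2* had 541 CPM (450 to 644), 58.1 and 83.4 CPM in the transitioning classes, 11.7 CPM in cycling cells, and 0.820 and 0.757 CPM in adrenaline and noradrenaline cells. *Kcna6* had 134 CPM (91.1 to 190), then 14.5 and 15.4, 3.18 and 0.410 CPM, and 0 UMIs in noradrenaline cells. Among the medullary classes, sustentacular-like cells were highest for each of these genes, followed by the transitioning classes, whose intervals overlapped. For *Kcna1* and *Kcna2* the cycling cells came next and the adrenaline and noradrenaline cells were lowest. With called doublets removed neither gene was called higher in cycling than in the other chromaffin-like cells. For *Kcna6* the cycling and adrenaline levels rest on 3 UMIs each, so no order among the chromaffin classes can be read.

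The sustentacular-like level was 401-fold that of chromaffin-like cells for *Kcna1* (239 to 720), 288-fold for *Kcna2* (175 to 501) and 214-fold for *Kcna6* (88.0 to 628). With each cell named from its own markers these were 174-fold, 115-fold and 109-fold. The chromaffin-like cells here include the cycling class, which had more *Kcna1* and *Kcna2* than the adrenaline and noradrenaline cells. At a resolution of 0.2, where no cycling chromaffin-like class was found, *Kcna1* was 1983-fold and *Kcna2* 524-fold higher. At 0.8 *Kcna1* was 696-fold higher. The part of the cycling cells in these ratios was not tested, and their intervals do not cover it. A *Kcna1* UMI was found in 91 of 179 sustentacular-like cells (50.8%, 43.3 to 58.4) and a *Kcna2* UMI in 71 (39.7%), with 44 cells having both, against 0.0465% of endothelial-like cells for each gene. The endothelial-like cells were deeper (median 2007 against 1149 UMIs). Among the 123 of the 179 sustentacular-like cells that could be thinned to 1000 UMIs, 42.3% had *Kcna1* and 34.1% *Kcna2*. In fibroblast-like cells *Kcna1* had 60.7, *Kcna2* 67.8 and *Kcna6* 17.8 CPM (5.79 to 41.6), each overlapping the transitioning classes. The sustentacular markers in fibroblast-like cells summed to 8.06% of their sustentacular-like level. The 25 of these cells with 3 or more mural markers had 19.4 CPM of *Kcna1* and of *Kcna2*, and the other 63 had 84.6 and 95.9 CPM. The part of sustentacular RNA in the fibroblast-like values was not tested. *Kcna1* (chromosome 6, 126640397 to 126646384) and *Kcna6* (126708329 to 126740674) are neighbours on the minus strand of GRCm38, together with *Kcna5* (126532551 to 126535412), a Kv1 gene with 0 UMIs in sustentacular-like cells, which allows up to 12.98 CPM, and 4.24 to 9.85 CPM in the chromaffin and transitioning classes.

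*Kcnj10*, the weakly rectifying channel by which glia take up K+, varied with the Kv1 genes. It had 121 CPM in sustentacular-like cells (80.5 to 175), 14.5 and 20.2 CPM in the transitioning classes, 5.30 CPM in cycling cells, and 0.273 and 0.757 CPM in adrenaline and noradrenaline cells, a difference of 145-fold between sustentacular-like and chromaffin-like cells (64.4 to 368). The chromaffin-like level here also includes the cycling cells. This ratio was 360 at a resolution of 0.2, where no cycling chromaffin-like class was found. It was 229 at 0.8 and 87.4 with each cell named from its own markers. Immune-like cells had 41.8 CPM of *Kcnj10* (31.9 to 53.8) with sustentacular markers at 0.940% of their sustentacular-like level. The other members called higher in sustentacular-like cells rested on few UMIs. They were *Kcnmb4*, a brain subunit of the large-conductance calcium-activated channel (38.9 against 3.55 CPM, 9 UMIs, 10.97-fold, 4.63 to 23.4), *Kcnn2* (38.9 against 1.98 CPM, 9 UMIs), *Kcnk5* (17.3 against 0.731 CPM, 4 UMIs, ratio 23.7, 5.08 to 93.1) and *Kcnh8* (3 UMIs, ratio 13.8, 2.41 to 55.3).

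The windows around the RefSeq start sites of 4 of these 8 genes are shown. *Kcna2*, *Kcna6* and *Kcnj10* descended together from sustentacular-like to chromaffin-like cells, and *Kcnmb4*, which rests on 9 sustentacular-like UMIs, is shown for its match to the letters searched. Each runs from 150 bases before to 20 bases after the start in GRCm38, on the strand of the gene. The GENCODE genes begin further upstream for *Kcna2* (at 107101146) and *Kcnmb4* (at 116473878), so the windows printed for these lie within the GENCODE gene. Sustentacular cells are marked by *Sox10*, whose protein belongs to a family that binds ACAAAG and ACAATG, so these letters were searched on both strands of the full windows (250 bases before to 50 after the start) and are in capitals (as CTTTGT where they lie on the other strand).
*Kcna2* (chr3:107101417-107101586, plus strand): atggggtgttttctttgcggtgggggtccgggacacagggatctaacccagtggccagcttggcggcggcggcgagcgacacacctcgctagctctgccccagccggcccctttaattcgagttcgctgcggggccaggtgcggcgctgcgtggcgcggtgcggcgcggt
*Kcna6* (chr6:126740655-126740824, minus strand): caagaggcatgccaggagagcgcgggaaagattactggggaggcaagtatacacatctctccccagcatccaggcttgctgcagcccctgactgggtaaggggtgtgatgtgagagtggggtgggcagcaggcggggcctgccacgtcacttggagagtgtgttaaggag
*Kcnj10* (chr1:172341060-172341229, plus strand): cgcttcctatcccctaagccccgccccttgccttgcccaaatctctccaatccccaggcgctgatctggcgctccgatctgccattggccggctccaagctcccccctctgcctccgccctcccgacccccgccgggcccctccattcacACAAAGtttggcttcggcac
*Kcnmb4* (chr10:116473504-116473673, minus strand): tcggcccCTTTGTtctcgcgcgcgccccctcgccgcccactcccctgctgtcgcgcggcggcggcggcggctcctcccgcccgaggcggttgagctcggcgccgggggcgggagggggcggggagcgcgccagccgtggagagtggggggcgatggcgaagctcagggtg
Of the 8 genes 6 had a window in the table, and 2 of these (*Kcnj10* and *Kcnmb4*) held ACAAAG or ACAATG, against 31.7% of 27025 genes with a window. *Kcna2* and *Kcna6* did not, nor did *Kcnk5* and *Kcnh8*, whose windows are not shown. Of the 11 members called higher in the outer cortex-like class 7 had a window, and 0 held AAGGTCA, the letters bound by the steroidogenic factor *Nr5a1*, against 5.38% of genes. A match is a description of letters in these windows and not of binding.

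**Figure D4:**
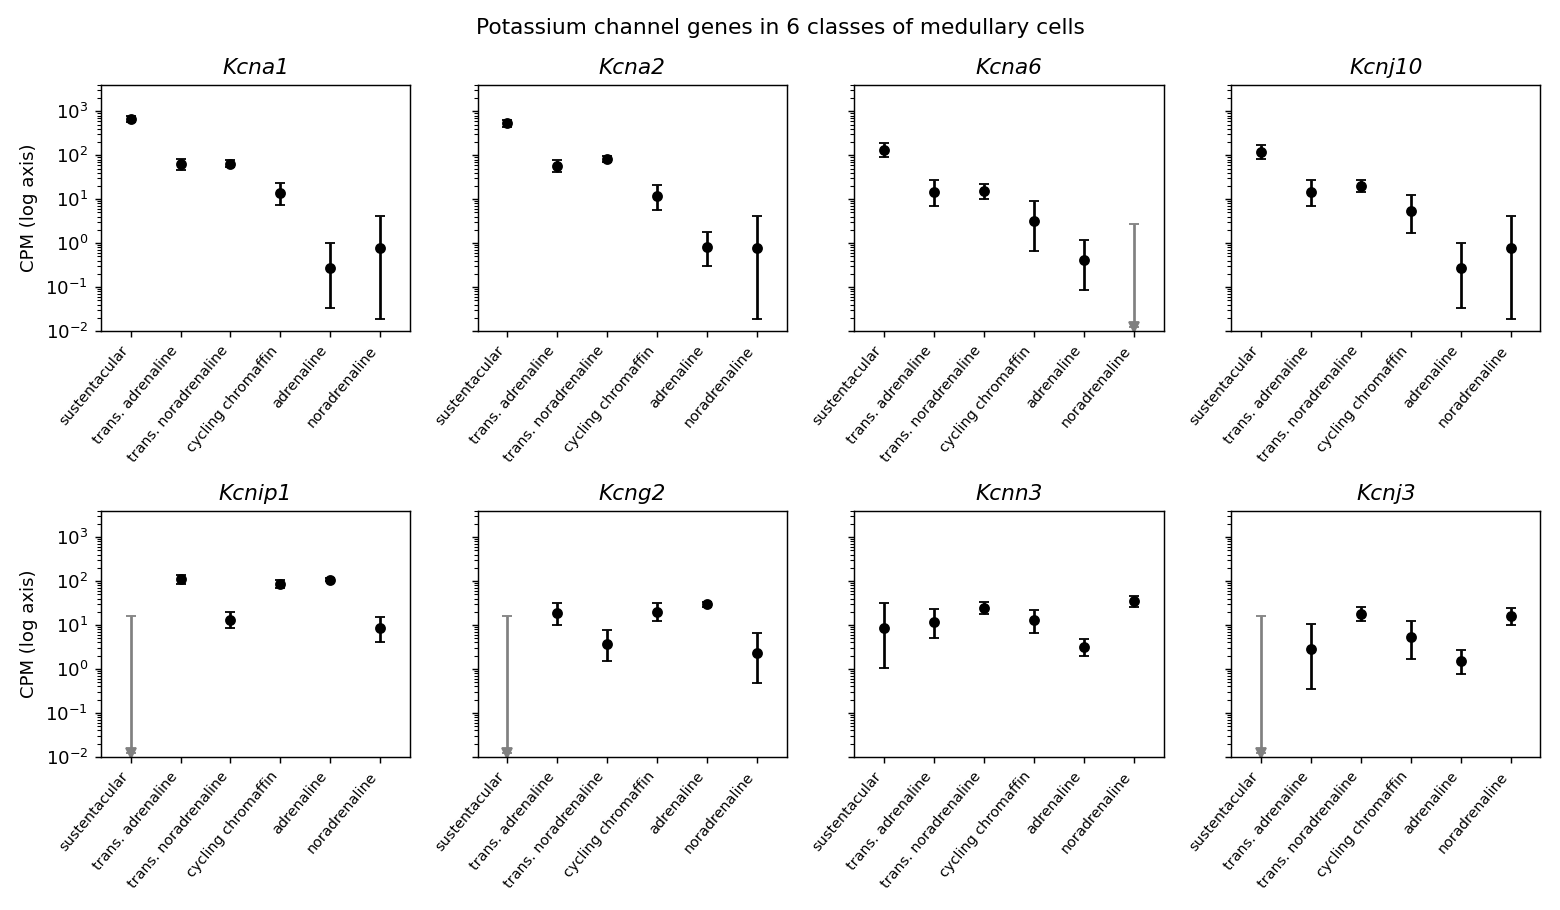
CPM (log axis) of 8 members in 6 medullary classes, with 95% Poisson intervals, cut off at the lower edge where they run below it. A grey triangle marks 0 UMIs. *Kcna1*, *Kcna2*, *Kcna6* and *Kcnj10* descend from sustentacular over transitioning to chromaffin cells, *Kcnip1* and *Kcng2* are high in adrenaline and *Kcnn3* and *Kcnj3* in noradrenaline cells.

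Transitioning-like cells as a whole had *Kcna1*, *Kcna2*, *Kcna6*, *Kcnj10* and *Kcnip1* above noradrenaline chromaffin-like cells. For *Kcnip1* this held through the transitioning adrenaline-like part, as its level in transitioning noradrenaline-like cells alone was within 2-fold of the noradrenaline class. For *Kcna1* (63.4 against 0.757 CPM) and *Kcna2* (76.6 against 0.757 CPM) the noradrenaline class had 1 UMI each, which gave ratios of 83.7 (14.8 to 3326) and 101 (17.9 to 4016). *Kcnj10* (18.7 CPM) had a ratio of 24.6 (4.22 to 993.6), again over 1 UMI. *Kcna6* was 6.68-fold higher with the 0 UMIs of the noradrenaline class read as 3. The sustentacular markers that named these cells moved with them. With called doublets removed the number of members called higher was again 5. The chromaffin members *Kcnk3*, *Kcnk9* and *Kcnc4* had 204, 181 and 70.0 CPM in the transitioning-like cells, within 2-fold of the noradrenaline class. Of 46 members tested, only *Kcna1* (13.8 against 0.347 CPM) and *Kcna2* (11.7 against 0.811 CPM) were called higher in cycling than in the other chromaffin-like cells. This was 4.35% of the members tested, near the 3.83% of all genes. Sustentacular markers in the cycling class were at 2.81% of their sustentacular-like level and cortex markers at 6.82% of their fasciculata-like level. The count was 0 with doublets removed. No member was called lower there (background 0.0838%).

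Among the voltage-gated pore subunits of chromaffin-like cells, *Kcnc4*, a Kv3 channel with fast kinetics, had 54.8 CPM in adrenaline and 68.9 CPM in noradrenaline cells, with 63.9 and 72.3 CPM in the transitioning classes. Cortex-like cells had 0.407 CPM of it, 139-fold below chromaffin-like cells (72.9 to 306), a ratio that ranged from 86.4 with the stricter cell filter to 409 with each cell named from its own markers. In sustentacular-like cells *Kcnc4* had 2 UMIs, and chromaffin-like cells were higher by a ratio of 6.55 (1.81 to 54.2). *Kcnc1* had 10.3 CPM in chromaffin-like cells and 2 UMIs in cortex-like cells.

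Between adrenaline and noradrenaline chromaffin-like cells 4 of the 42 members tested were past the limit. With a pseudocount of 1 CPM it was 14, for which no share of all genes was counted. *Kcnip1*, a calcium-binding subunit that modulates Kv4 channels, had 107 CPM in adrenaline (99.4 to 115) and 8.33 CPM in noradrenaline cells (4.16 to 14.9), a 12.8-fold difference (7.12 to 25.8). All 3 adrenaline clusters lay between 98.0 and 110 CPM. A *Kcnip1* UMI was in 33.2% of adrenaline and 2.31% of noradrenaline cells, against 0.0930% of endothelial-like cells (median depths 3165.5, 2646.5 and 2007 UMIs). The Kv4 genes that it is known to modulate were low in both, with *Kcnd1* at 5.88 and 3.03 CPM, *Kcnd2* at 1.504 and 1.51 CPM and *Kcnd3* at 0.410 and 1.51 CPM. With each cell named from its own markers the difference was 4.11-fold. *Kcng2*, another electrically silent Kv subunit, had 29.7 CPM in adrenaline and 3 UMIs (2.27 CPM) in noradrenaline cells, a ratio of 13.1 (4.41 to 63.8). Without the noradrenaline cells that had a *Pnmt* UMI this ratio was 33.4, and it was 5.44 when each cell counted equally.

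*Kcnn3*, the small-conductance calcium-activated channel SK3, had 34.8 CPM in noradrenaline (25.5 to 46.5) and 3.15 CPM in adrenaline cells (1.99 to 4.72), 11.1-fold higher (6.58 to 19.1). *Kcnj3*, a G-protein-gated inward rectifier, had 15.9 and 1.504 CPM, 10.6-fold higher (4.87 to 24.3). Its partner *Kcnj6* had 34.1 and 27.8 CPM and was within 2-fold. In noradrenaline cells without a *Pnmt* UMI (328 cells) the levels were 6.23 CPM of *Kcnip1*, 36.5 of *Kcnn3* and 14.2 of *Kcnj3*. *Kcnip1* was likewise 8.20-fold higher (5.15 to 13.5) in transitioning adrenaline-like than in transitioning noradrenaline-like cells (109 against 13.3 CPM). *Kcng2* was 5.07-fold (1.88 to 15.0) and *Kcnq3* 2.51-fold (1.72 to 3.66) higher there. These 3 were 8.11% of 37 members tested, against 1.92% of all genes. *Kcnj3* was lower in transitioning adrenaline-like cells, with 2 UMIs and a ratio of 6.22 (1.60 to 53.5). It was 2.70% of the members tested, near the 2.24% of all genes. This second comparison was also added after the data had been seen. It could not be repeated with called doublets removed, as the only transitioning class was then the noradrenaline-like one, with 419 cells. Of the 324 transitioning noradrenaline-like cells 99 had a *Pnmt* UMI. *Kcnip1* had 21.1 CPM in these 99 cells and 9.89 CPM in the other 225.

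**Figure D5:**
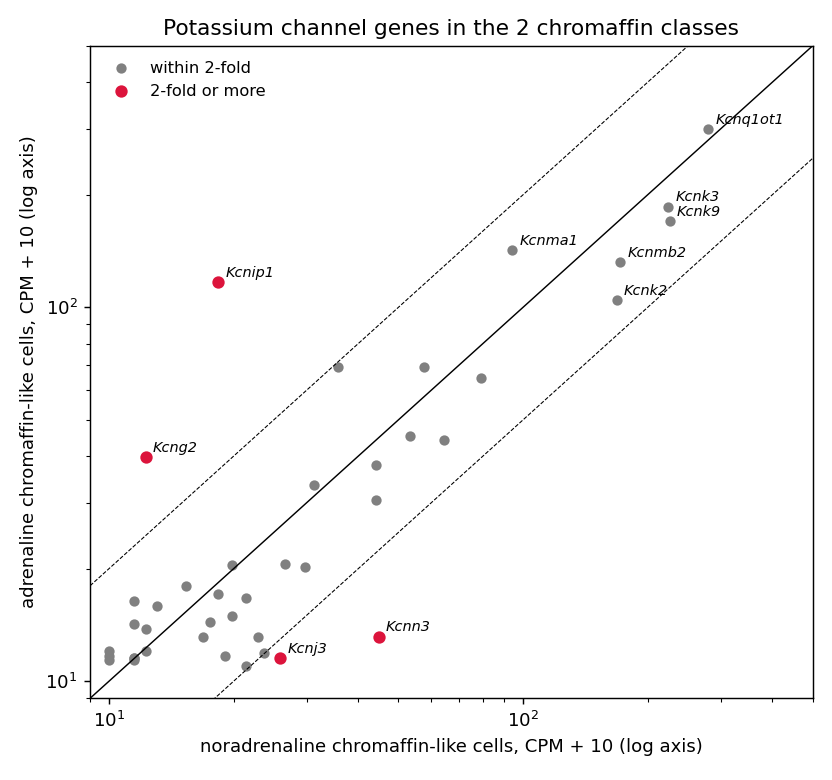
Each point is 1 of 42 members with at least 10 UMIs over both classes, with CPM + 10 in noradrenaline (x) and adrenaline (y) chromaffin-like cells on log axes. The solid line marks equal levels and the dashed lines a 2-fold difference. Of the 42 members 4 (red) lie outside the dashed lines.

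Kv7 and ether-a-go-go members of the chromaffin cells included *Kcnq3* (59.2 CPM in adrenaline, 25.8 in noradrenaline cells) and *Kcnh2* (23.4 and 21.2 CPM). *Kcnq1*, of the heart and of epithelia, was mainly found in endothelial-like cells with 13.1 CPM. Among the calcium-activated channels, *Kcnma1*, the large-conductance (BK) pore that shapes chromaffin spikes, had 132 CPM in adrenaline (124 to 141), 84.1 in noradrenaline (69.2 to 101) and 177 in transitioning adrenaline-like cells (147 to 211). It was also present in outer cortex-like cells with 145 CPM (117 to 178) and in fasciculata-like cells with 66.1 CPM. *Kcnmb2*, the BK subunit that makes the current inactivate, had 122 CPM in adrenaline and 161 CPM in noradrenaline cells, 147-fold above cortex-like cells when all chromaffin-like cells were taken (126 against 0.859 CPM, 93.5 to 244, with 97.5 under the stricter filter and 220.3 with each cell named from its own markers). Of 1660 adrenaline cells 604 had a *Kcnma1* UMI, 556 a *Kcnmb2* UMI and 260 both, and the share with *Kcnmb2* was 43.0% among cells with *Kcnma1* and 28.0% among those without. The part of cell depth in this difference was not tested. *Kcnn2*, the SK2 channel, had 79.9 CPM in fasciculata-like (73.5 to 86.6), 53.1 CPM in outer cortex-like (36.6 to 74.6), 20.8 in cycling cortex-like and 14.5 CPM in inner cortex-like cells. Sustentacular-like cells had 38.9 CPM (17.8 to 73.9), which overlaps the outer class and lies above the inner class. Chromaffin-like cells had 1.98 CPM, 19.3-fold lower than all cortex-like cells (12.3 to 32.2).

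Inward rectifiers carry K+ mainly near rest. *Kcnj6* (29.0 CPM) and *Kcnj12* (11.5 CPM) were called higher in chromaffin-like than in cortex-like cells, which had 2 and 11 UMIs. For *Kcnj12* this did not hold for the outer cortex-like class, which had 6 of these UMIs. Its 9.66 CPM (3.55 to 21.0) overlaps the chromaffin-like level. *Kcnj8*, the pore of vascular ATP-sensitive channels, had 74.2 CPM in endothelial-like (67.3 to 81.6) and 96.4 CPM in fibroblast-like cells (63.5 to 140), which overlap. Chromaffin and transitioning classes had 2.90 to 8.50 CPM of it. Its regulatory partner *Abcc9*, which does not carry the prefix, had 78.2 CPM in endothelial-like and 161 CPM in fibroblast-like cells, where the endothelial markers summed to 56.4% of their endothelial-like level. *Kcnj15* was found mainly in endothelial-like cells (18.0 CPM). *Kcnj11*, the pore of the ATP-sensitive channel of beta cells, stayed at or under 1.64 CPM in every class and *Abcc8*, its partner, at or under 3.57 CPM.

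Auxiliary subunits change the gating or traffic of a pore and carry no current. Chromaffin-like cells had *Kcnmb2*, *Kcnip1*, *Kcnip4* (56.7 CPM) and *Kcnip3* (10.96 CPM) at 10 CPM or more. *Kcnip4* had 6.06 CPM in cortex-like cells, mostly from the inner class with 9.98 CPM, and chromaffin-like cells were 9.36-fold higher (7.73 to 11.4). *Kcnip3* had 0 UMIs in cortex-like cells, so chromaffin-like cells were at least 80.8-fold higher. In sustentacular-like cells *Kcnip1* and *Kcnip4* had 0 UMIs, and chromaffin-like cells were at least 7.02-fold and 4.37-fold higher. *Kcnip3* and *Kcnc1*, called lower there by the same rule, lie below the 12.98 CPM that 0 UMIs allow, so that their difference was not detectable at this depth. *Kcne3*, a small subunit that holds *Kcnq1* channels open, had 51.8 CPM in endothelial-like cells (46.0 to 58.0). *Kcnab2*, a cytoplasmic Kv1 subunit, had 13.2 CPM in immune-like cells and 0 UMIs in sustentacular-like cells, where *Kcnab1* had 4.33 CPM (1 UMI).

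*Kcnq1ot1* is a non-coding RNA from the strand opposite *Kcnq1*, which silences neighbouring genes on the paternal chromosome. It was the only member at 10 CPM or more in all 13 classes, from 96.2 CPM in inner cortex-like to 398 CPM in outer cortex-like cells (350 to 451). The *Atf3*-led fasciculata cluster had 366 CPM and the *Cyp11b1*-led one 198 CPM. Whether strand was used in counting is not given in the sources used here, and *Kcnq1* was at 0 UMIs in the outer class.

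Of 18 partner genes without the prefix, *Lrrc26*, *Lrrc38* and *Lrrc52* had 0 UMIs in every class. *Lrrc55*, a subunit that shifts BK channels to open at lower voltage, had 64.4 CPM in outer cortex-like cells and 0 UMIs in the other cortex-like cells, at least 461-fold higher. It had 0 UMIs in adrenaline and noradrenaline cells, where *Kcnma1*, at 145 CPM in the outer class, had 132 and 84.1 CPM. *Dpp6*, a Kv4 partner, had 64.4 CPM in chromaffin-like and 0.226 CPM in cortex-like cells (285-fold, 121 to 881). Sustentacular-like cells had 69.2 CPM of *Hcn2*, a channel of the current that hyperpolarisation opens, 7.80-fold over chromaffin-like cells (4.27 to 13.4). *Atp1b1*, a subunit of the sodium pump that sets the K+ gradient, was higher in chromaffin-like cells, with 712 against 38.9 CPM.

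The remaining members were rare. In all, 33 of the 79 members stayed under 10 CPM in every class, and 6 had fewer than 10 UMIs. Of all 18713 features 12534 reached 10 CPM in a class. Among the members under 10 CPM only *Kcnk12* had a highest class, adrenaline chromaffin-like cells, with an interval apart from the next. For the others no highest class can be read.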

How the data were processed

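The deposited values were raw UMI counts per gene and barcode, made by the authors with Cell Ranger 4.0.0 on mm10 per the submitters' processing notes, without normalization, and 32285 features were listed. Cells with 500 to 5000 genes and at most 20% mitochondrial UMIs were kept. Log-normalization and clustering were done in Seurat 5.3.0 (R 4.3.3; 2000 variable features without *Kcn* genes, 10 principal components, Louvain at a resolution of 0.4), and medullary and cortical cells were clustered again. A cluster took the name of a list from which it had 3 or more markers found in 50% of its cells. The limit was 25% for sustentacular, cycling, outer cortex, fasciculata and inner cortex markers. The cycling cortex-like name needed 5 cycling markers. *Pnmt* in 50% of cells divided adrenaline from noradrenaline clusters. Scrublet (scanpy 1.11.5, expected rate 8%) called 669 doublets, which were kept in the values reported and removed in an alternative.

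Counts were summed per class and divided by class totals (CPM). Intervals were exact (Poisson for levels, conditional binomial for ratios, Clopper-Pearson for shares). A count of 0 was read as up to 3 counts. The upper end of its exact interval is higher, for sustentacular-like cells 15.96 against 12.98 CPM. Ratios over such a count divide by the level of 3 counts, without counting error in either class, and have no interval. The scripts were checked on simulated counts. Other steps used Python 3.11.15, numpy 2.4.6, scipy 1.17.1, pandas 2.3.3 and matplotlib 3.10.9. Gene positions came from GENCODE M21 by Ensembl ID (79 of 79 matched), and start-site windows from RefSeq by symbol (55 of 79 matched; among those not matched are *Kcna1*, *Kcnk3* and *Kcnk9*). Named genes were members at 100 CPM or more in a class, the 5 highest per class with at least 10 UMIs, the 5 largest folds per direction and comparison, and the partner genes. Others named were chosen after their values were seen. The members, gene lists and comparisons were chosen with earlier results of these data known. Results on some of the members and partner genes are not reported here.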

Additional observations from a re-analysis of the deposited data

How the results depend on the processing

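No paired analysis was possible because 1 library was analysed here. Over 22 named ratios and 151 alternative values, 0 reversed in direction and 29 moved by more than 1.5 times, most of them when each cell was named from its own markers, under a stricter cell filter or at a resolution of 0.2. With a pseudocount of 1 CPM instead of 10, the numbers of members past the limit rose from 4 to 14 (adrenaline against noradrenaline), 19 to 39 (chromaffin against cortex), 25 to 47 (sustentacular against chromaffin), 5 to 12 (transitioning against noradrenaline), 2 to 11 (cycling against other chromaffin), 12 to 19 (outer against other cortex), 4 to 9 (between the transitioning classes) and 5 to 14 (inner cortex against fasciculata). A fold limit of 4 gave 1, 9, 14, 2, 0, 4, 1 and 3 in the same order. The share of all genes past these altered limits was not counted. These numbers thus show how the counts depend on the limit and are no result about the members. The cycling count was 0 at a resolution of 0.8, 0 with doublets removed, 0 with each cell named from its own markers and 1 where cells needed 1000 genes and no more than 10% mitochondrial UMIs, a filter under which the count between the transitioning classes was 2. The causes of these changes were not tested. With the stricter cell filter no sustentacular-like or fibroblast-like class was found. No transitioning adrenaline-like class was found at a resolution of 0.2, with doublets removed or with *Kcn* genes kept among the variable features, and no cycling chromaffin-like class at 0.2, so these gave no value. The other 55 alternative counts stayed within 1.5 times. Where no transitioning adrenaline-like class was found, the transitioning noradrenaline-like class was larger than its 324 cells. It had 417 cells at a resolution of 0.2, 419 with doublets removed and 414 with *Kcn* genes kept. In the smallest classes 0 UMIs allow up to 12.98 CPM in sustentacular-like and 10.7 CPM in fibroblast-like cells.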
